A study of Oryctolagus cuniculus with 3 samples.

Results

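The comparison set the abdominal aorta of the recovery group against that of the uninjured control group, over all 43603 gene probes of an Agilent rabbit array. It uses 2 of the 3 arrays of the series, and the third, from the model group, serves to trace what was left in recovery of the change seen in that group. All rabbits were adult male New Zealand white rabbits, 3 months old at the start, and each array holds RNA of 1 rabbit that had been picked from a group of 4 with the help of pathological sections and intravascular ultrasound. The control rabbit (AS 0 day) was neither injured nor given cholesterol and ate normal chow. Its sample title also carries the label PBS, and the study's methods name no such treatment of the control rabbits. The recovery rabbit (AS 60 day) had eaten chow with 1% cholesterol and 6% peanut oil for 4 weeks, had its abdominal aorta injured with a balloon 3 days into that diet, and then spent another 4 weeks on chow without added cholesterol or fat. The study's methods describe those last weeks as caloric restriction with intake cut by 20%, while the sample labels call the food a normal diet. The model rabbit (AS 30 day) had the same injury and cholesterol diet and was killed at 4 weeks. Since each group has 1 array, the variation among rabbits is unknown, no test was made, and every difference below is between single aortas. Injury, diet, the time between groups and the individual rabbit cannot be told apart.

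The wall of a large artery is built mainly of smooth muscle cells of the media, lined by endothelium and wrapped in an adventitia of fibroblasts, nerves, small vessels and fat. After balloon injury the endothelium is scraped off and smooth muscle cells enter the intima, where they divide and lay down matrix. Cholesterol feeding adds macrophages that take up lipoproteins and become foam cells. When cholesterol is withdrawn the lesion can lose lipid and macrophages, and the remodelled wall is left.

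The deposited values are log2 signals that had already been brought to the same distribution by quantile normalization, and the 3 sorted columns differed by at most 0.073. Values under 4.37, the 40th percentile over the gene probes, were set to that floor. A fold with 1 array under the floor is therefore a lower bound, written "at least", and no fold is given where both were under it. In control and in recovery alike 26161 probes lay above the floor, a number that the normalization fixes. Over the 8 spiked-in control transcripts above the floor, which carry no rabbit RNA, the median of recovery minus control was 0.07 on the log2 scale, with a range from -0.34 to 0.58. For model minus control the median was -0.46.

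Of the 28950 probes whose signal passed the floor in 1 or more of the 3 arrays, 4627 (16.0%) were at least 2-fold higher in recovery and 4644 (16.0%) at least 2-fold lower. Quantile normalization gives both arrays the same distribution, which largely sets this balance, and with the arrays shifted to equal spiked-in controls 3931 probes were higher and 5248 lower. At 4-fold the deposited values gave 1532 probes (5.29%) higher and 1810 (6.25%) lower. At 32-fold or more, 123 probes were higher and 205 lower. Bounds made up 15.1% of the probes at least 2-fold higher and 23.2% of those at least 2-fold lower. Of this pair of arrays, 2190 probes were above the floor only in recovery and 2190 only in control, counts that the normalization makes equal. The median absolute difference was 0.62 on the log2 scale between recovery and control and 0.50 between model and control. The widest measured falls were those of 2 neighbouring probe numbers without a gene name, A_04_P012584 and A_04_P012582. Their signals were 17.11 and 17.17 in control and 6.38 and 6.48 in recovery, 1701-fold and 1643-fold lower. The largest difference upward was that of A_04_P004001, also without a gene name, at 5.40 in control and 14.56 in recovery, 571-fold higher.

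**Figure D1:**
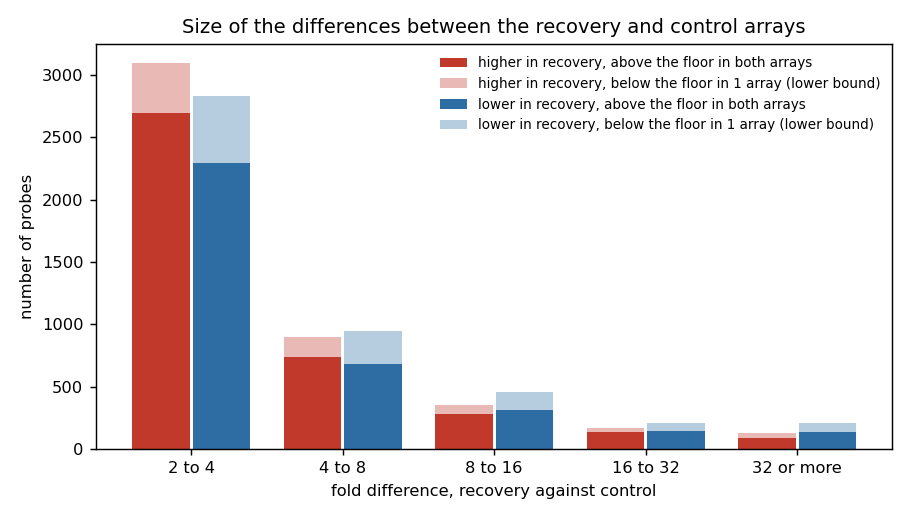
Number of probes by size of the fold difference between the recovery and control arrays, with rises in red and falls in blue. Dark parts are probes above the floor in both arrays and pale parts are lower bounds. Rises outnumbered falls from 2 to 4-fold, at 3095 against 2834, and falls outnumbered rises in every larger class, up to 205 against 123 at 32-fold or more.

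The direction of a difference went with the signal in control. Of the 2137 probes with a control signal over 12, 6.18% were at least 2-fold higher in recovery and 27.4% at least 2-fold lower. Of the 6415 probes between the floor and 6, 19.0% were higher and 7.48% lower. Those less than 2-fold above the floor in control could not be 2-fold lower after flooring, which limits the second share. Probes at or under the floor in control could only be higher, and 25.0% of the 2789 that passed the floor in another array were. With 1 array per group, measurement error in the control signal and a change in the tissue cannot be told apart here.

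**Figure D2:**
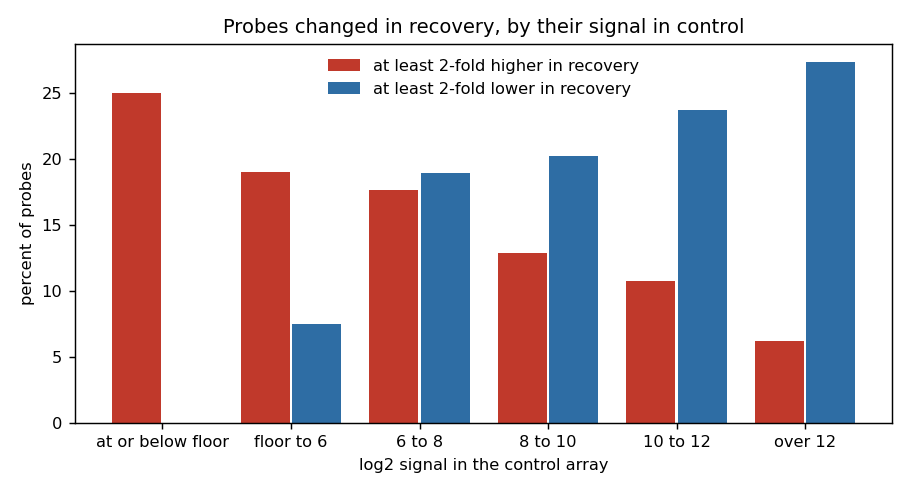
Percent of probes at least 2-fold higher (red) or lower (blue) in recovery, by the log2 signal in the control array. The share of higher probes is 25.0% at or below the floor and 6.18% over 12, and the share of lower probes is 0 at or below the floor, where none can occur, and 27.4% over 12.

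Most of the change seen in the model array was still present in the recovery array. In the model array 3451 probes (11.9%) were at least 2-fold higher than in control and 3784 (13.1%) at least 2-fold lower. Of the higher probes, 2334 (67.6%) were still at least 2-fold above control in recovery, 1101 (31.9%) lay within 2-fold of control and 16 lay at least 2-fold below it. Of the lower probes, 3058 (80.8%) were still at least 2-fold below control, 700 (18.5%) lay within 2-fold and 26 lay at least 2-fold above. Both differences are taken from the same control array, so an error in its signal for a probe enters both. The split also depends on the scaling. With the arrays shifted to equal spiked-in controls, 2958 of 6705 higher probes (44.1%) and 2355 of 2549 lower probes (92.4%) were still at least 2-fold from control.

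Large model changes were left in place more often than small ones, and more so for falls. Among rises of 2 to 4-fold 60.8% were still at least 2-fold above control, and among rises of 16-fold or more 83.2%. Among falls the same shares were 72.0% and 96.8%. Some of this order follows from the counting, since a large change must shrink further to come within 2-fold. For probes above the floor in all 3 arrays, the share of the model change left in recovery, on the log2 scale, had a median of 0.94 for rises (quartiles 0.62 and 1.23) and 1.00 for falls (quartiles 0.70 and 1.26). A value above 1 means that recovery lay further from control than model did. The distance from control was at least 2-fold larger in recovery than in model for 297 of the higher probes (8.61%) and 459 of the lower probes (12.1%).

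**Figure D3:**
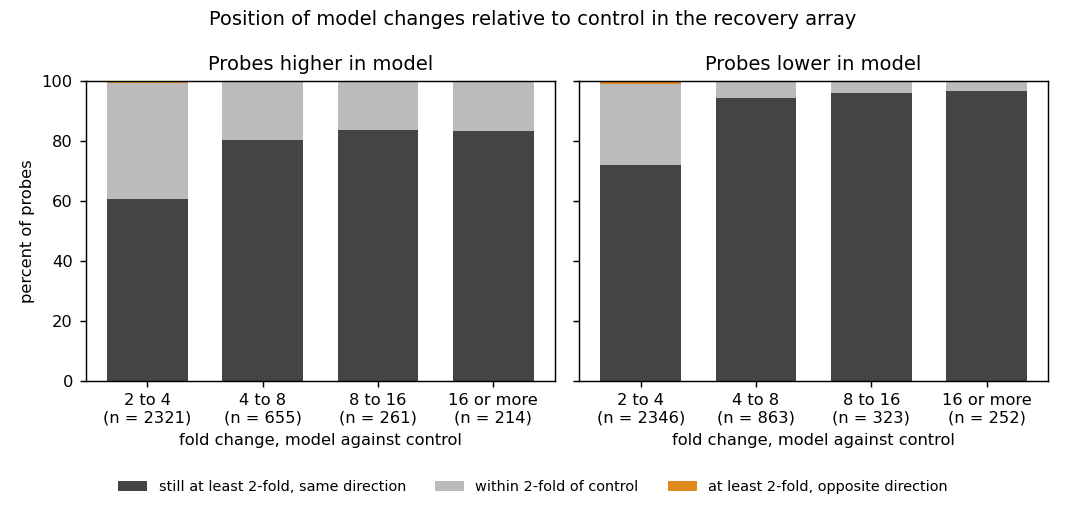
Position in the recovery array of probes changed in the model array, by size of the model change, for probes higher (left) and lower (right) in model. Dark bars are still at least 2-fold from control in the same direction, grey bars lie within 2-fold and orange bars at least 2-fold on the other side. The dark share is 60.8% for rises of 2 to 4-fold and 96.8% for falls of 16-fold or more.

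Conversely, 3837 probes were at least 2-fold from control in recovery although they had been within 2-fold in model. Of the 4627 higher probes, 2334 had been at least 2-fold higher in model, 2267 (49.0%) had been within 2-fold and 26 had been at least 2-fold lower. Of the 4644 lower probes, 3058 had been lower, 1570 (33.8%) within 2-fold and 16 higher. At 4-fold the part that had been within 2-fold in model was smaller, with 360 of 1532 higher probes (23.5%) and 210 of 1810 lower ones (11.6%).

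The deposited values carry probe identifiers without gene names. Names were taken from the list of changed genes published with the study, by matching its ratios to those of the probes. A name was given only where exactly 1 probe had both log2 ratios to control within 0.006 and where the density of probes around that point led to fewer than 0.05 expected chance matches. Of 3715 listed genes 997 met that density limit, and 619 of them could be placed in this way. Summed over those 619 alone, 12.3 chance matches were expected. Of the 619, 574 had a usable symbol, 533 of them known to RefSeq. Matching needs a thinly filled region, so named genes over-represent large changes, and a gene may have further probes. Of the 574, 148 (25.8%) were 2-fold or more above control in recovery and 204 (35.5%) at least 2-fold lower, with a median log2 difference of 0 because 129 were under the floor in both arrays. The median over all 28950 probes was 0.04. Counts of a gene list below are read beside these shares, which already lie above the 16.0% of all probes. The ratios of named genes equal those of the published list by construction, and the signal levels and the bounds are added here. The roles given are general ones, known mainly from human and mouse.

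Genes of the contractile apparatus were higher in the recovery aorta without exception among those named. All 14 of the 40 listed smooth muscle genes with a named probe were at least 2-fold higher, with a median log2 difference of 3.75 and a range from 2.51 to 5.91, and 12 of them had already been above the floor in control. MYH11 encodes the myosin heavy chain of smooth muscle, and its log2 signal went from 10.71 in the control array to 15.14 in model and 15.66 in recovery, 30.9-fold above control. The smooth muscle actins ACTA2 and ACTG2 were 16.0-fold and 23.7-fold higher, from 12.45 to 16.45 and from 11.43 to 16.00. The largest difference in the list was that of TPM2, β-tropomyosin, which lay at 6.50, 11.83 and 12.42 and was 60.3-fold higher. The model array lay close to recovery for these genes, with a median log2 difference from control of 3.63. LMOD1, an actin nucleator, was under the floor in control and stood at 8.79 in recovery, at least 21.3-fold higher. The defining markers of smooth muscle that could be named were thus well above the floor in recovery, and MYH11, ACTA2 and ACTG2 were so in control too.

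All 4 named genes of the ion channel and calcium handling list were higher as well, with a median log2 difference of 3.38. CASQ2, which stores calcium in the sarcoplasmic reticulum, lay at 7.14 in control, 11.29 in model and 12.63 in recovery, 45.1-fold above control. The calcium pump gene ATP2A2 was 7.84-fold higher, from 11.91 to 14.88. JPH2, which couples the reticulum to the surface membrane, was 13.9-fold higher, and KCNMB1, a subunit of the large-conductance potassium channel, 6.72-fold. CASQ2 and KCNMB1 also stand in the smooth muscle list. HSPB6, a small heat shock protein of smooth muscle, was at 4.73 in control and 9.42 in recovery, 25.8-fold higher.

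The named genes of the striated muscle list were either at least 2-fold above control or under 2-fold from it after flooring. Of 43 listed genes 10 could be named, 5 of them at least 2-fold higher and none at least 2-fold lower. The other 5 were under 2-fold, and 7 of the 10 were above the floor in recovery. The log2 differences ran from -0.78 to 5.85. The sarcoglycan gene SGCA lay at 6.07 in control and 11.92 in recovery, 57.5-fold apart. MYOM1 and FHOD3, a protein of the sarcomere M-band and an actin-assembling formin, were under the floor in control and at 9.47 and 9.41 in recovery, at least 34.2-fold and 32.8-fold higher. The muscle creatine kinase CKM, at 4.90, 10.97 and 9.08, was 18.0-fold above control in recovery, after 67.2-fold in model. The cardiac troponin TNNT2, the α-actinin ACTN2 and the Z-disc gene MYOZ1 lay under the floor in both arrays.

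Matrix genes did not move as 1 group. Of 7 named genes of the collagen and matrix list 4 were higher and 2 lower. SPP1, encoding osteopontin, a matrix protein made by macrophages and by smooth muscle cells, lay at 5.94 in control, 10.59 in model and 12.83 in recovery, 119-fold above control. CTGF, a matricellular growth factor, was 53.5-fold higher, from 6.38 to 12.12, and the short-chain collagen gene COL8A1 16.1-fold higher, from 12.83 to 16.84. In the other direction, COL5A3, a chain of type V collagen, was 84.5-fold lower, at 11.75 in control and 5.35 in recovery. COL1A1, the main chain of fibrillar collagen, was at 13.66 in control, 13.08 in model and 10.84 in recovery, 7.04-fold lower. COL1A1 was within 2-fold of control in model, so most of its distance appeared between the model and recovery arrays.

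Among proteases and their inhibitors, 2 of 8 named genes were higher, 1 was lower and 5 were under 2-fold. TIMP1, an inhibitor of metalloproteinases, was at 11.18, 13.06 and 15.10, 15.1-fold higher in recovery, and SERPINE2, an inhibitor of thrombin and plasminogen activators, was 14.2-fold higher. TIMP4, another inhibitor of the TIMP family, was 20.6-fold lower, from 9.79 to 5.43. The 5 named proteases were all under 2-fold after flooring, which leaves the size open where an array was under the floor. MMP12, the macrophage elastase, was at 7.27 in model and under the floor in the other arrays. MMP11 was at 5.41 in control and 5.87 in recovery, and ADAMTS9 at 6.70 and 6.62. MMP16 came closest to the limit, 1.98-fold higher at 6.87 and 7.85, and ADAMTS16 was at 5.08 in control and under the floor in recovery, at least 1.63-fold lower. MFAP4, a protein of elastic microfibrils, was 8.06-fold higher, from 10.38 to 13.39.

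The 5 named genes of the hypoxia response list had their highest signal in the recovery array. Of these, 4 were at least 2-fold above control, with a median log2 difference of 2.61 in recovery and -0.84 in model. The named glycolysis genes described below are not in this list, and 4 of those 6 were at least 2-fold lower than control in recovery. HIF1A, the oxygen-regulated subunit of the hypoxia-inducible factor, lay at 6.19 in control, 8.25 in model and 11.06 in recovery, 29.2-fold above control. Its relative EPAS1, at 6.44 in model and 8.24 in recovery, was 9.45-fold above control. HILPDA, a lipid droplet protein that hypoxia induces, lay below control in model and above it in recovery, at 7.26, 5.98 and 9.87. ADM, the vasodilator adrenomedullin, was 2.39-fold higher, at 6.07, 5.24 and 7.33, and ANGPTL4, an inhibitor of lipoprotein lipase, lay at 0.03 above control. Both named immediate early genes were higher too. FOS was at 8.08, 6.71 and 10.64, 5.90-fold above control, and the nuclear receptor gene NR4A3 was under the floor in control and at 7.93 in recovery, at least 11.7-fold higher. Tissue handling was not recorded per sample, so the part of it in these values was not tested.

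**Figure D4:**
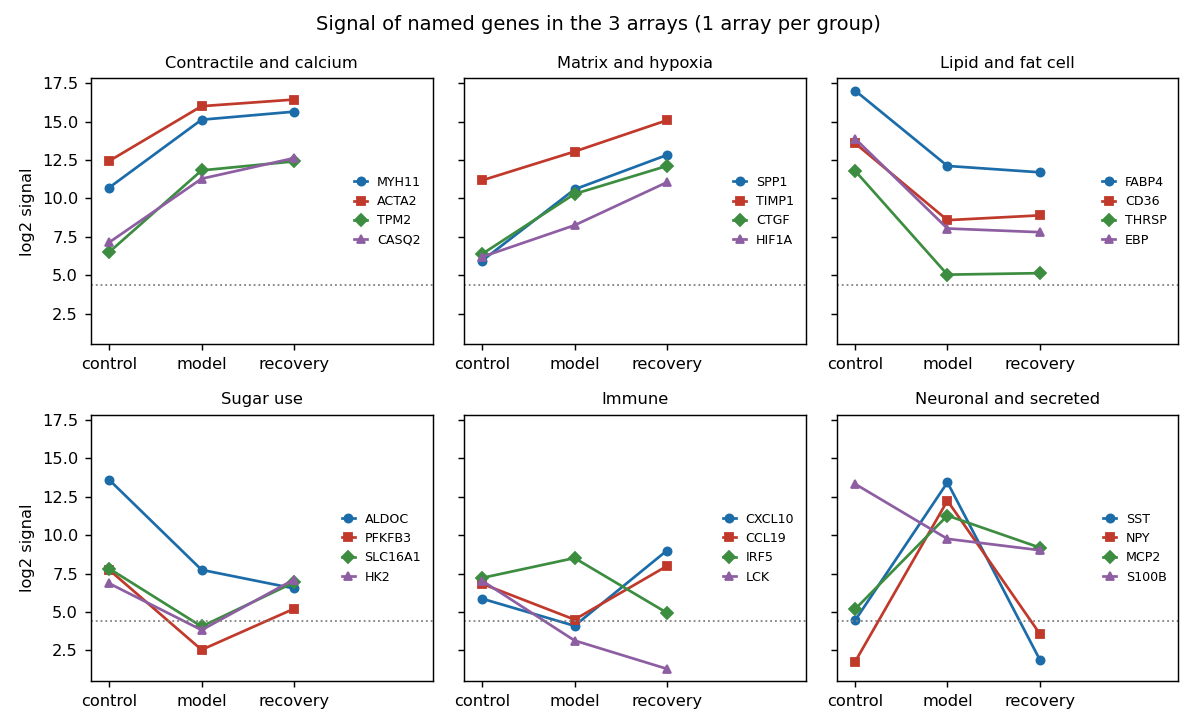
Log2 signal of 24 named genes in the control, model and recovery arrays, 1 array per group, with the floor as a dotted line and values below it as deposited. The lines join arrays of 3 different rabbits. Of the genes drawn, MYH11 and SPP1 are at 15.66 and 12.83 in recovery, above control, FABP4 and THRSP are at 11.71 and 5.13, below it, and SST and NPY are under the floor.

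In each of the lipid lists the named genes at least 2-fold from control were all lower. In the cholesterol synthesis and feedback list all 4 named genes were lower, with a median of -3.71. EBP, a sterol isomerase of cholesterol synthesis, lay at 13.91 in control, 8.04 in model and 7.80 in recovery, 68.8-fold lower. ACAT2, the thiolase that makes acetoacetyl-CoA, was 17.8-fold lower and INSIG1, a gene of sterol feedback in the endoplasmic reticulum, 9.64-fold lower.

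For fatty acid and triglyceride synthesis 5 of 6 named genes were at least 2-fold lower. THRSP, a regulator of lipogenesis, was at 11.81, 5.03 and 5.13, 102-fold lower, and AGPAT9, an acyltransferase that starts triglyceride synthesis, was 69.0-fold lower at 12.04, 6.20 and 5.93. ELOVL6, an elongase of fatty acids, was at least 23.6-fold lower. The exception was the desaturase FADS2, at 7.09 in control, 4.82 in model and 6.85 in recovery. Both named genes of fatty acid oxidation were lower, HADH 11.2-fold and ACAA2 3.81-fold. In the lipoprotein list, CD36, a receptor for fatty acids and modified lipoproteins, was 26.1-fold lower, from 13.61 to 8.90. APOA2, encoding an apolipoprotein of high-density particles, went from 10.15 to under the floor, a fall of at least 54.7-fold.

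Markers of fat cells were lower in the recovery array as well. Of 31 listed adipocyte genes 7 could be named, 6 of them at least 2-fold lower, with a median log2 difference of -5.33. Their summed signal, on the log2 scale, was 17.63 in control, 13.76 in model and 14.64 in recovery. From model to recovery FABP4 fell, and ADIPOQ and PPARG were under the floor in both arrays. THRSP and CD36 lay only 0.10 and 0.31 higher in recovery than in model. That leaves RBP4 and SLC2A4 for the rise of the sum. ADIPOQ and PPARG, the fat cell hormone and the receptor that drives fat cell formation, were at 10.85 each in control and under the floor in recovery, at least 89.3-fold and 88.9-fold lower. FABP4, the fatty acid binding protein of fat cells and macrophages, was at 17.04 in control, 12.12 in model and 11.71 in recovery, 40.3-fold lower. RBP4 was 3.65-fold lower, and the insulin-responsive glucose transporter SLC2A4 lay at 13.61 in control and 13.49 in recovery. THRSP and CD36 belong to this list as well as to the lipid lists. In RNA from whole aorta fewer cells of a type and less RNA per cell cannot be told apart. The part of fat around the vessel in the lipid results was not tested.

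Genes of sugar use were lower or under 2-fold from control. Of 6 named glycolysis genes 4 were lower, with a median of -4.03. ALDOC, an aldolase, lay at 13.61 in control, 7.74 in model and 6.53 in recovery, 135-fold lower and the largest measured fall among named genes. The 3 named genes of the enzyme family that makes and breaks the bisphosphate activator of glycolysis were all lower. PFKFB1 and PFKFB4 were at 11.10 and 9.91 in control and under the floor in recovery, at least 106-fold and 46.4-fold lower, and PFKFB3 was 5.79-fold lower at 7.74 in control and 5.20 in recovery, with model under the floor. By contrast, HK2, the hexokinase that traps glucose in muscle, was at 6.86 in control and 7.11 in recovery, although model lay under the floor. The lactate transporter gene SLC16A1 was at 7.82 and 6.92 in control and recovery, 1.87-fold lower, and under the floor in model.

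Immune genes took different courses by type. All 5 named lymphocyte genes of 36 listed were lower, all above the floor in control and none in recovery. CD79B, a chain of the B cell receptor, was at least 14.4-fold lower, and LCK, a kinase of the T cell receptor, was at 7.03 in control and at least 6.29-fold lower. LTB, a lymphocyte cytokine, was at 8.17, 5.46 and under the floor, at least 13.9-fold lower. Among 6 named chemokines and cytokines 4 were higher. IL17B, a cytokine of the interleukin-17 family, was at 4.55, 9.99 and 11.49, 123-fold above control and the largest measured rise among named genes, though its control signal was just above the floor. The interferon-induced chemokine gene CXCL10 was at 5.86 in control and under the floor in model, and in recovery lay 8.80-fold above control. CCL19, which draws lymphocytes, was 2.24-fold higher, and CCL5, another chemokine for T cells, at least 5.36-fold lower.

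Of the 5 named genes of innate sensing and interferon response 4 were lower. THEMIS2, a signalling adaptor of B cells and macrophages, was at 9.29, 8.00 and 5.06, 18.9-fold lower. IRF5, an interferon regulatory factor of macrophages, was at 7.21 in control, 8.51 in model and 4.94 in recovery, so it went from above control to 4.85-fold below it. The receptor TLR2 lay at 8.60, 9.44 and 7.46, 2.21-fold lower in recovery. Markers of macrophages did not share a direction. Of 5 named, SPP1 was higher, ACP5, an acid phosphatase of osteoclasts and foam cells, and TLR2 were lower, and MMP12 and CX3CR1 were under the floor in both arrays.

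Endothelial, fibroblast and erythroid markers were lower in the recovery aorta. Of 7 named endothelial genes 5 were at least 2-fold lower, with a median of -2.33 in recovery and -3.29 in model, and their summed log2 signal was 12.40 in control, 8.40 in model and 9.81 in recovery. PLVAP, which forms the diaphragms of endothelial pores, was at 9.13, 5.09 and 4.92, 18.6-fold lower, and the adhesion molecule PECAM1 was at 8.94, 6.42 and 7.04, 3.74-fold lower. CLDN5, of the tight junctions, lay at 9.80, 6.04 and 8.81, and PROCR, the receptor of protein C, at 7.90, 5.88 and 7.42, 1.99-fold and 1.40-fold lower. CA4, a membrane carbonic anhydrase of capillaries, was 42.8-fold lower.

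All 4 named markers of adventitial fibroblasts were lower, with a median of -3.62. CD34 is among them and also among the lower genes of the endothelial list. DPT, the matrix protein dermatopontin, was at 12.20, 8.18 and 7.37, 28.4-fold lower, and THY1, a surface protein of fibroblasts, at 9.63, 7.11 and 5.81, 14.1-fold lower. Both named erythroid genes were lower, among them ALAS2, the first enzyme of haem synthesis in red cell precursors, at 12.84, 8.75 and 6.30, 93.2-fold lower. The neutrophil and mast cell list had 2 named genes, 1 lower and 1 higher. S100A12, a calcium-binding protein of neutrophils, was 27.7-fold lower, from 12.73 to 7.94, and MCP2, described below, was 16.2-fold higher. KRT19, a keratin of epithelia and mesothelium, was at 7.81 in control and under the floor in the other arrays. UPK1B, the only other named gene of that list, was under the floor in every array. The part of these cell types in the differences of other genes was not tested.

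**Figure D5:**
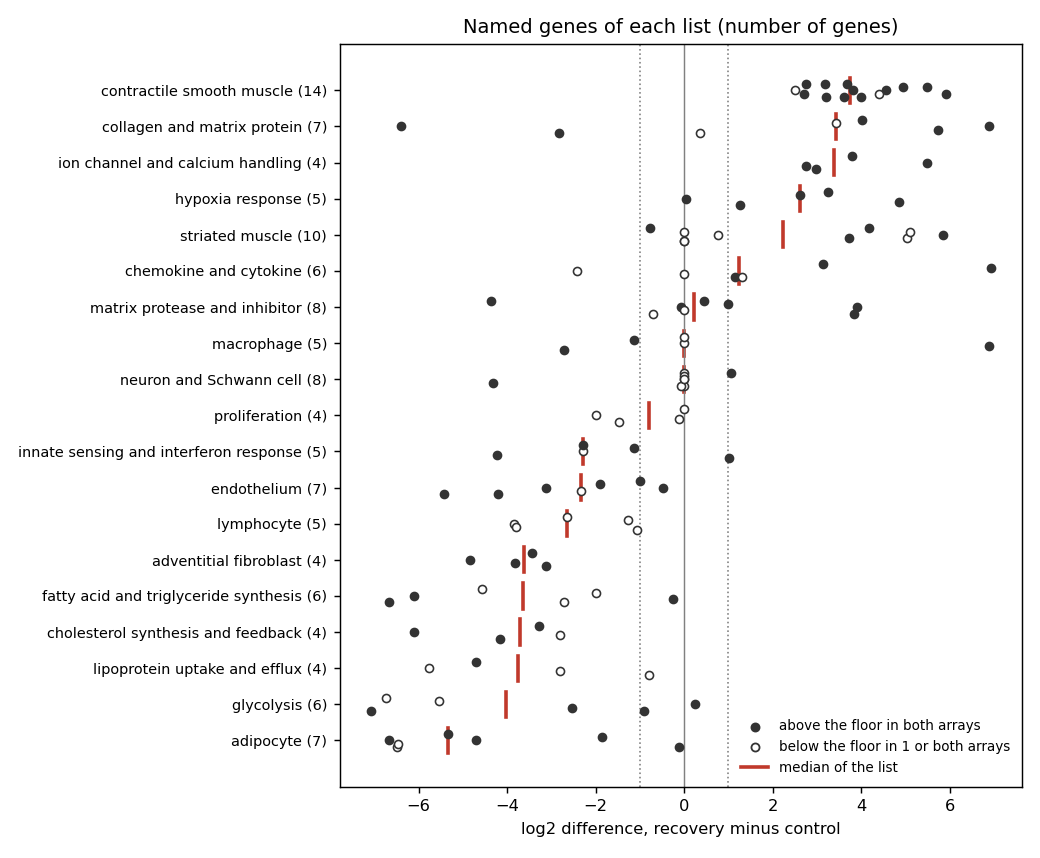
Log2 difference between the recovery and control arrays for the named genes of each list with at least 4 of them, filled where both arrays were above the floor and open otherwise, with the list median in red and dotted lines at 2-fold. Genes under the floor in both arrays stand at 0. The 14 contractile genes all lie above 2-fold, with a median of 3.75, and the adipocyte list has the lowest median, -5.33.

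Nerve genes that were high in model were mostly under the floor in recovery. Of 8 named genes of the neuron and Schwann cell list 7 were above the floor in model and 2 in recovery. SST, encoding somatostatin, was at 4.44 in control, 13.44 in model and under the floor in recovery, and NPY, encoding neuropeptide Y, was at 12.25 in model and under the floor in the other arrays. SYT1, a protein of synaptic vesicles, was at 7.84 in model only. TH, the enzyme that starts catecholamine synthesis, was at 4.72, 7.90 and 5.77, still 2.08-fold above control. S100B, a calcium-binding protein of Schwann cells and fat cells, took another course, at 13.34, 9.76 and 9.02, 20.0-fold lower. Of the other genes the study picked as candidate markers, MCP2, the defensin macrophage cationic peptide 2, was at 5.17, 11.28 and 9.19 and remained 16.2-fold above control. The study uses that name too, but describes MCP2 as the chemokine known in humans as CCL8. BMP7, a bone morphogenetic protein, was at 8.71 in control and under the floor in both other arrays, at least 20.2-fold lower.

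Other large differences fell outside the lists. BCHE, butyrylcholinesterase, was just under the floor in control and at 13.09 in model and 13.30 in recovery, at least 486-fold higher, the largest bound among named genes. LMCD1, a LIM domain protein of muscle, was at 4.84, 7.97 and 11.42, 95.5-fold higher, and TES, a LIM domain protein of cell adhesions, at 9.84, 14.71 and 15.26, 42.7-fold. SERPINI1, or neuroserpin, an inhibitor of tissue plasminogen activator, was 36.8-fold higher and NT5E, which makes adenosine from AMP at the cell surface, 33.0-fold. On the other side, the glycerate kinase gene GLYCTK was 78.7-fold lower, ITIH3, a carrier of hyaluronan, 74.1-fold lower and TMEM37 49.5-fold lower. For the measured genes of this group the share of the model change left in recovery, on the log2 scale, ran from 0.997 for SERPINI1 to 2.10 for LMCD1. They were picked for a large difference between recovery and control, which by itself favours high shares, so nothing is read from that range.

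The distance from control widened most between model and recovery for CYP2A10, a cytochrome P450, and for LMCD1. CYP2A10 was at 10.87 in control, 8.12 in model and under the floor in recovery. FAM150B, a ligand of the receptor ALK, was under the floor in control, at 6.64 in model and at 9.88 in recovery. CA2, a cytosolic carbonic anhydrase, went from 9.80 through 7.18 to under the floor. Of the 574 named genes, 67 had a model change of at least 2-fold that was still there in recovery and larger by at least 2-fold, and another 252 had one that was still there without growing that much.

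Of the named genes, 65 with a model change of at least 2-fold lay within 2-fold of control in recovery, 40 after a rise and 25 after a fall. Another 9 lay at least 2-fold on the other side of control. Among these, EEF1A2, an elongation factor of muscle and nerve, was at 7.91 in control, 9.89 in model and under the floor in recovery, at least 11.6-fold below control. CXCL10, HILPDA and FOS crossed in the opposite direction, from below control in model to above it in recovery. A further 24 named genes were at least 2-fold from control in recovery but not in model. PTX3, a pentraxin of the acute phase made in the vessel wall, was under the floor in control and model and at 7.53 in recovery, at least 8.93-fold higher. RNF135, a ubiquitin ligase of antiviral sensing, was at 8.26, 7.46 and 4.98, 9.71-fold lower in recovery, and HDDC3 was 9.61-fold lower. CKS2, a subunit of cell cycle kinases, was 6.93-fold lower at 8.86, 7.96 and 6.06. In the proliferation list 2 of 4 named genes reached 2-fold, CCNB2 and BUB1, both of mitosis and at least 4.00-fold and 2.78-fold lower.

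The limit of 2-fold divides genes of nearly equal difference. Just inside it lay CASP4, an inflammatory caspase, 2.01-fold higher at 7.15 in control and 8.16 in recovery, and ACO1, a cytosolic aconitase, 2.01-fold lower at 6.39 and 5.38. Just outside it lay CLDN5 and RASGEF1B, both 1.99-fold lower, and MMP16, a membrane-type metalloproteinase, 1.98-fold higher at 6.87 and 7.85. Nothing is read from the side on which such a gene fell.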

How the data were processed

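RNA of 3 rabbit aortas was hybridized with Cy3 to 1-colour Agilent arrays, 1 per group. The submitters' notes name version 10.7 of Agilent Feature Extraction for reading the scans. Quantile normalization by the authors in GeneSpring followed, and the deposited values are log2 signals. Background treatment is not given in the sources used here. The table holds 43603 gene probes and 58 control rows, of which 1 is a negative control. The number of arrays limits the precision. The labels name no batch.

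Values were floored at the 40th percentile over gene probes, and differences between arrays were counted at 2-fold and 4-fold over the 28950 probes that passed the floor somewhere. Python 3.11.15 was used with pandas 2.3.3, numpy 2.4.6, matplotlib 3.10.9 and scipy 1.17.1. The counting and the naming were tested on simulated data. Genes named in the text are the 10 largest measured differences and 5 largest bounds each way, up to 4 members of each of 30 gene lists in its main direction and 2 in the other, the largest of each course from model to recovery, and the study's candidates. Some further list members, chosen after their values were seen, are given to show levels near control. LPL could not be placed on a probe, and some list members are not reported here by name. Symbols were checked against RefSeq (mOryCun1.1). The genes and lists were chosen with earlier results of these data known. No sequence was printed, since none was used here. The alternatives changed the floor, the scaling, the filter, the fold and the naming rule.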

Additional observations from a re-analysis of the deposited data

How the results depend on the processing

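No paired analysis was possible because each group has 1 array, and for the same reason no replicate could be left out. Of 50 values under the alternatives, 31 stayed within 1.5 times the reported count. A floor at the 20th percentile gave 2770 probes at least 4-fold lower in place of 1810. With the floor at the 60th percentile (6.58 on the log2 scale) every count shrank. At 2-fold 3040 probes were higher and 2995 lower, and at 4-fold 984 and 1090. Model rises and falls still in place numbered 1485 and 1993, with 1040 back within 2-fold and 2547 changed in recovery only. Fewer probes remain above that floor, and values under it are raised to it, which makes folds smaller. At 1.5-fold there were 7886 higher and 7148 lower probes, 4552 rises and 4804 falls still in place and 3137 back within that fold. Shifting the arrays by the spiked-in controls used 0.14 for recovery and -0.42 for model on the log2 scale. These are differences between the arrays' median spiked-in signals, not medians of the differences. The shift raised the probes back within 2-fold from 1801 to 3857. It gave 3931 higher against 5248 lower probes in recovery. Under that shift CASP4 and TH come within 2-fold of control, while CLDN5, RASGEF1B and SLC16A1 pass 2-fold lower. The naming rule placed 213 genes at a limit of 0.01 expected chance matches, 983 at 0.1, 2186 without a limit and 327 with a tolerance of 0.01 on the log2 ratios, against 619. Signals near the floor and the single array per group limit all of these counts.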

Other observations

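The genes given here were chosen after their values were seen. They are single genes and stand for no list. YAP1, a transcriptional co-activator, was at 7.81 in control, 9.41 in model and 10.86 in recovery, 8.30-fold higher, and TEAD3, of the family of DNA-binding partners of YAP, was under the floor in control and at 7.14 in recovery, at least 6.82-fold higher. ANKRD1, a target of YAP, was under the floor in control, at 6.98 in model and at 5.14 in recovery, at least 1.70-fold higher. Of the matricellular CCN family, which includes CTGF, CYR61 was 6.99-fold higher, from 9.18 to 11.98, and NOV 15.5-fold higher, from 8.30 to 12.25. At the muscle membrane, SGCD, a sarcoglycan, was 10.6-fold higher and DTNA, of the dystrophin complex, at least 36.1-fold higher. NOX4, an oxidase that makes hydrogen peroxide, and HGF, hepatocyte growth factor, were at least 9.37-fold and 14.2-fold higher. TNFRSF11B, encoding osteoprotegerin, was at 6.54, 9.75 and 11.01, 22.2-fold higher.

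TKT, the transketolase of the pentose phosphate pathway, was 9.68-fold lower, at 13.33, 9.97 and 10.06. ALAD, an enzyme of haem synthesis, was 12.7-fold lower and HEMGN, a gene of blood cell precursors, at least 25.9-fold lower. TFRC, the transferrin receptor, was at least 4.93-fold higher. Of the inter-alpha-trypsin inhibitor family, ITIH3 was 74.1-fold lower, ITIH2 was at least 6.72-fold higher and ITIH4 was 4.90-fold higher. FKBP5, a target of the glucocorticoid receptor, was at 5.13, 7.00 and 9.15, 16.2-fold higher, and NR1D1, a nuclear receptor of the circadian clock, was at 9.34, 7.22 and 4.73, 24.5-fold lower. The hour at which each aorta was taken is not given in the sources used here.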
